A study of Schizosaccharomyces pombe with 4 samples.

Results

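The fission yeast Schizosaccharomyces pombe carries many small nucleolar RNAs (snoRNAs) that do not lie in an annotated intron, and 35 of them are described here in cells that lack the debranching enzyme Dbr1. They are all annotated snoRNAs except the members of 2 snoRNA clusters (8 genes) and those wholly inside an intron on the same chromosome and strand (10 genes), which leaves 35 of 53 snoRNAs among 12383 loci (7022 transcripts and 5361 introns). RNA was sequenced from 2 biological replicates of the dbr1Δ deletion strain and 2 of wild type. The dbr1Δ strain came from the Bioneer deletion collection and grew slowly, and the wild type was ED668. Both strains are h+ and carry the alleles ade6-M216, ura4-D18 and leu1-32. Both strains were grown in YES, a rich medium, at 32 °C to an OD600 of 0.4, and total RNA was depleted of rRNA and sequenced with its strand kept. The libraries held 24205354 and 19780858 counts in dbr1Δ replicates 1 and 2, and 25169220 and 36062720 in wild-type replicates 1 and 2. The question is whether snoRNAs that have no annotated host intron also differ in level when lariats are not debranched.

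snoRNAs guide the chemical modification of rRNA in the nucleolus, and a few act in the cleavage of the rRNA precursor. Box C/D snoRNAs are short, carry the box C and box D motifs near their ends, and guide ribose methylation. Box H/ACA snoRNAs are longer, end a few bases after the triplet ACA, and guide the conversion of uridine to pseudouridine. Many snoRNAs of other species are cut out of spliced introns, and there the lariat must be opened by Dbr1 before exonucleases can trim the snoRNA. Those with their own promoter are released by endonucleases and trimming and do not need a lariat.

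The RNAs split by size into 13 of at most 120 bases (73 to 112 bases) and 22 of over 120 bases (142 to 326 bases). Of the 22 longer ones, 19 are named box H/ACA in the RefSeq annotation (assembly ASM294v3), against none of the 13 shorter ones. Among the 12 short RNAs with enough counts to be tested, 9 hold both TGATGA (box C) and CTGA (box D) on their own strand, against 1.43% of genome windows of 84 bases. Of the 18 long RNAs tested, 16 have the same width in RefSeq as in the deposited table, and 13 of these have ACA within their last 8 bases, against 9.69% of genome windows of 8 bases. With the untested RNAs included, 9 of the 13 short ones hold both boxes and 14 of the 22 long ones have the ACA. TGATGA and CTGA also occur together in 3 of the 16 long RNAs, so these letters alone do not separate the classes. The labels of both size classes fit the sequences of most of their members. All 35 matched a RefSeq entry by identifier, and 33 have the same start and end there. The exceptions are snR90, which is longer in RefSeq than in the deposited table, and snoZ30, which is shorter. RefSeq names snoZ30 a C/D containing snoRNA of 95 bases, while its row in the deposited table spans 300 bases. It is counted among the long RNAs here by that row alone, and its counts can include reads from outside the RefSeq entry. In the RefSeq entries of all 35, every run of 49 bases, the read length, occurs once in the genome as an exact match. The mapping allowed mismatches and copies with mismatches were not searched, so the loss of reads with several matches was not tested.

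Sequences are shown first for 3 of the RNAs that were decreased or increased, because they have the same motifs in their flanks. The RNAs snR40 (chrI:431220-431301, plus strand), snr62 (chrI:3851768-3851841, minus strand) and snoR56 (chrI:5148474-5148555, minus strand) are printed with their flanks from RefSeq, each 5′ to 3′. Capitals mark a GTANG before the snoRNA, ACTAAC after it and the first AG that follows, the letters of a 5′ splice site, a branch point and a 3′ splice site in fission yeast.
snR40: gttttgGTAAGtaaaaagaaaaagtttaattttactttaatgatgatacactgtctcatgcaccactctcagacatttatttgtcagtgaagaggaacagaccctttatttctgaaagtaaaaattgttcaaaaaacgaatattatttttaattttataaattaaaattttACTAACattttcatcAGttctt
snr62: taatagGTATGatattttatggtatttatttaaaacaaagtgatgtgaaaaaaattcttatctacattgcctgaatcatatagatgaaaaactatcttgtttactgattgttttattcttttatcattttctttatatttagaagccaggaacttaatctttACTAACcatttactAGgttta
snoR56: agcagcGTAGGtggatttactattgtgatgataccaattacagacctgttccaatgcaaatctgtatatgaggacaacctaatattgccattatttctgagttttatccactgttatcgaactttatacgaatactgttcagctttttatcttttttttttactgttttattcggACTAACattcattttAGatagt

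The motifs GTANG in the 100 bases before and ACTAAC in the 100 bases after, both on the strand of the snoRNA, were found together around 3 of the 35 RNAs, those printed above. Over all windows of the genome with the same spacing, GTANG stood before in 21.7%, ACTAAC after in 2.16%, and both in 0.481%. Among the 10 snoRNAs inside annotated introns 3 had both, and among the 8 in the clusters 1. These motifs were chosen after the sequences of the RNAs that fell had been read, so the count is a description. The nearest GTANG begins 29 bases before snR40, 29 before snr62 and 14 before snoR56, and the ACTAAC begins 55, 54 and 74 bases after them. In the 100 bases before snoR56 there are 4 matches to GTANG, and only the nearest is given. No intron is annotated at these places in the deposited table, and a match of letters does not show that the stretch is spliced.

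**Figure D1:**
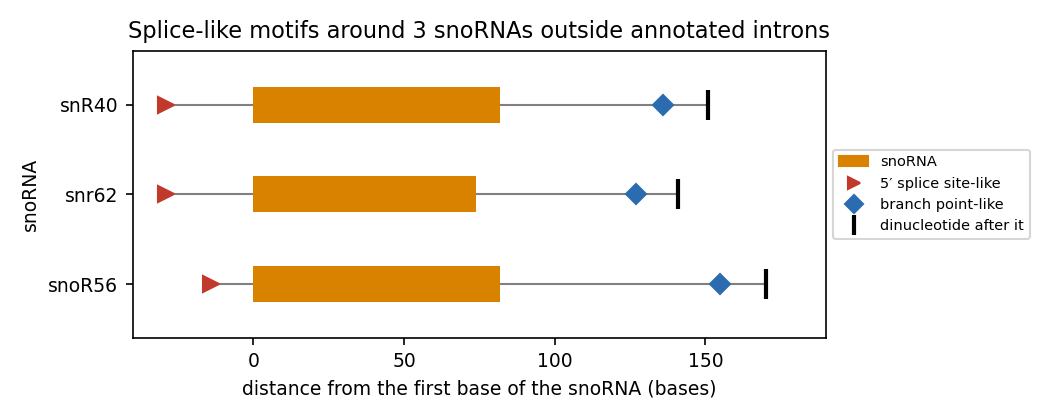
Distance in bases (horizontal axis) from the first base of snR40, snr62 and snoR56 (bars) to the nearest GTANG before them (triangles), the ACTAAC after them (diamonds) and the first AG after that (ticks). The order of the motifs was set by the search. The nearest GTANG lies 29, 29 and 14 bases before and the ACTAAC 55, 54 and 74 bases after.

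The deleted gene was checked first. The dbr1 transcript had 8.24 and 8.31 CPM (counts per 1000000 counts of the library, scaled by edgeR's TMM method) in dbr1Δ cells, against 62.0 and 50.8 CPM in wild type, a log2 fold change of -2.77 ± 0.12 (SE; edgeR adjusted p = 3.8e-07). Both libraries labelled dbr1Δ were low. Of the 35 snoRNAs, 30 reached the minimum of 10 counts in 2 or more libraries and were tested, and the other 5 are described at the end. The libraries kept the strand, but whether the counting used it is not given in the sources used here, so for the 8 members with a transcript on the other strand (snR36, snR92, snR96, snR97, snr79, sno20, sno52 and snoR02) the reads of both cannot be told apart with certainty. Counts came from whole cultures, in which less RNA per cell and fewer cells with the RNA cannot be told apart.

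Of the 30 tested, 2 were increased and 4 decreased in dbr1Δ (adjusted p under 0.05 and fold change over 2), beside 6.69% increased and 2.81% decreased among all 6401 tested transcripts. Without the fold threshold 9 were higher and 12 lower, and 9 did not pass the test, where 17.8% of all transcripts were higher and 42.6% lower. Their median log2 fold change was -0.08, and that of all transcripts -0.18. The members' median turned with single libraries, at 0.07 without dbr1Δ replicate 1 and -0.20 without dbr1Δ replicate 2. Both dbr1Δ libraries lay above both wild-type libraries for 10 of the 30 (27.1% of all transcripts) and below for 13 (55.1%), and the groups overlapped for 7. The decreased RNAs were snR40, snr62, snR90 and snR92, and the increased ones were snoR56 and snoR69b. Scaling from transcripts alone raises every log2 fold change by 0.17. Under it snR88 and snoU14 also pass the fold threshold, which makes 4 increased and 4 decreased, with 11 members higher and 9 lower. Of all 6401 tested transcripts, 535 were increased and 91 decreased under this scaling, and 1716 were higher and 1760 lower.

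**Figure D2:**
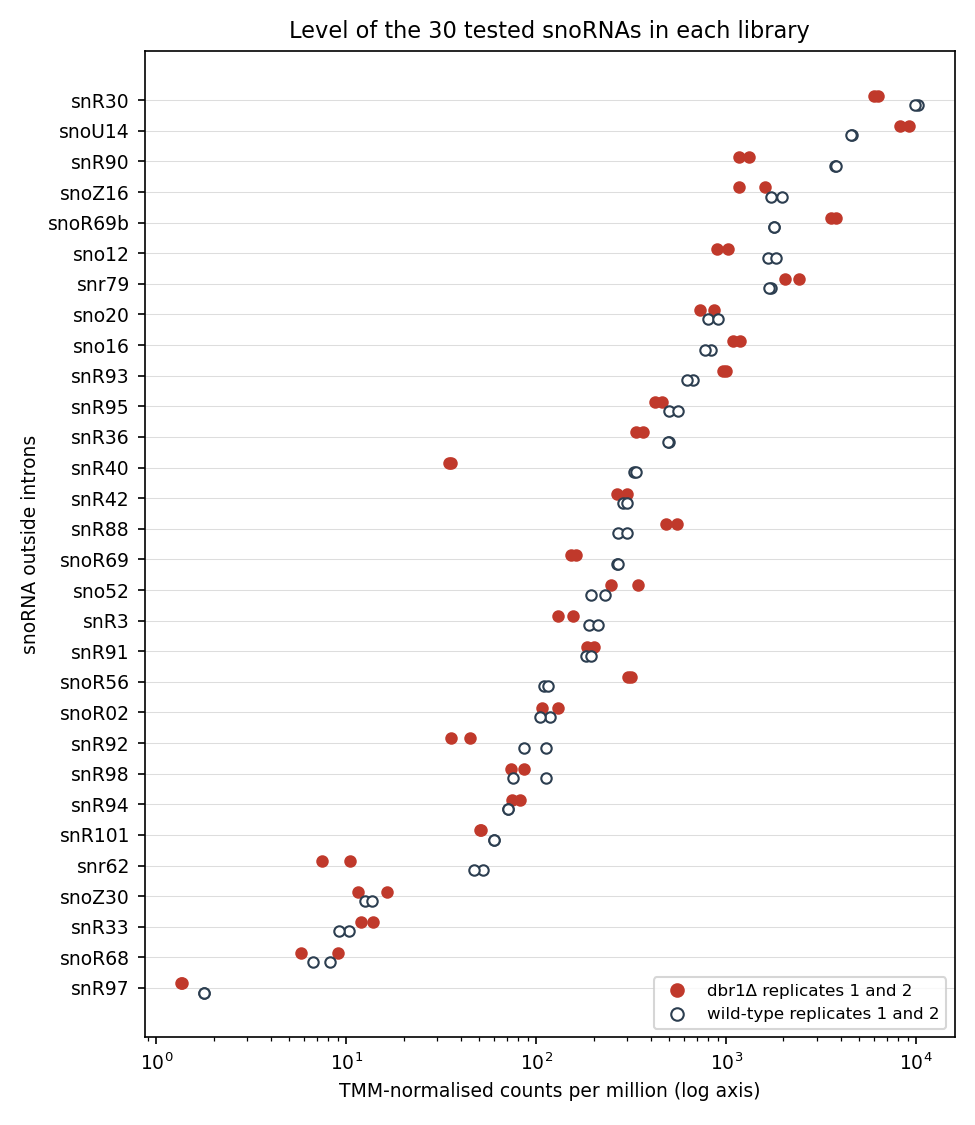
TMM-normalised CPM (horizontal log axis) of the 30 tested snoRNAs in each library, dbr1Δ as filled points above and wild type as open points below each line, ordered by the wild-type mean. The replicates of a strain lie close together for most RNAs, and snR40 stands far to the left in dbr1Δ (34.9 and 35.4 CPM, against 327 and 333 CPM in wild type).

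The RNA that fell most was snR40, a box C/D snoRNA whose budding yeast namesake guides rRNA methylation. It had 34.9 and 35.4 CPM in dbr1Δ, against 327 and 333 CPM in wild type. The dbr1Δ libraries were nearly equal and far below both wild-type libraries, at a level 9.39-fold lower (log2 fold change -3.23 ± 0.07, SE; edgeR adjusted p = 6.7e-09). It overlaps no other transcript on either strand in the deposited table.

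The short RNA snr62, also named after a methylation guide of budding yeast, had 7.40 and 10.4 CPM in dbr1Δ, against 52.4 and 46.9 CPM in wild type. The groups did not overlap, and the log2 fold change was -2.49 ± 0.15 (SE; edgeR adjusted p = 3.2e-06). It is the one member that lies inside another transcript of the same strand that is not a noncoding RNA row, SPAC4H3.12c (chrI:3851646-3852219). That transcript had 15.0 and 16.9 CPM in dbr1Δ, against 73.8 and 67.0 CPM in wild type (log2 fold change -2.15 ± 0.09, SE; edgeR adjusted p = 3.5e-07). The snoRNA accounted for 49.3% and 61.9% of its counts in dbr1Δ and for 71.0% and 69.9% in wild type. With the counts of snr62 taken off, a step chosen after seeing the data, the rest of the transcript had 191 and 127 counts in dbr1Δ, against 531 and 715 in wild type. That remainder was lower as well, with a log2 fold change of -1.56 ± 0.13 (SE; edgeR adjusted p = 2.4e-05).

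snR92, a box H/ACA snoRNA of 144 bases, had 35.5 and 44.96 CPM in dbr1Δ, against 113 and 85.7 CPM in wild type. The groups stood apart although the wild-type libraries were spread, and the log2 fold change was -1.31 ± 0.15 (SE; edgeR adjusted p = 1.5e-04). A noncoding RNA, SPNCRNA.1487, lies across it on the other strand.

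snR90 is a box H/ACA snoRNA and was one of the 3 most abundant members in wild type by CPM. It had 1320 and 1162 CPM in dbr1Δ, against 3739 and 3760 CPM in wild type, a log2 fold change of -1.60 ± 0.09 (SE; edgeR adjusted p = 1.5e-06). The groups did not overlap, and the wild-type libraries were almost identical. It lies inside the noncoding RNA SPNCRNA.1038 (chrI:4936907-4937569, minus strand), which held 1559 and 1348 CPM in dbr1Δ, against 3876 and 3909 CPM in wild type. Most of these are the counts of snR90 itself, 84.6% and 86.2% in dbr1Δ and 96.5% and 96.2% in wild type. With them taken off, 6017 and 3670 counts remained in dbr1Δ, against 3396 and 5266 in wild type, and this remainder was higher in dbr1Δ (log2 fold change 0.57 ± 0.12, SE; edgeR adjusted p = 0.0033). The snoRNA as drawn in the deposited table and the rest of its noncoding RNA thus moved in opposite directions.

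The sequence around the end of the snR90 row (RefSeq, chrI:4937005-4937214, minus strand, 5′ to 3′) is shown because the noncoding RNA goes on there with the same kinds of motif. On this strand, capitals mark GTANG with the base after it, then box C (TGATGA) and a later copy of it, then box D (CTGA), and last the letters of a branch point (ACTAAC).
snR90 end: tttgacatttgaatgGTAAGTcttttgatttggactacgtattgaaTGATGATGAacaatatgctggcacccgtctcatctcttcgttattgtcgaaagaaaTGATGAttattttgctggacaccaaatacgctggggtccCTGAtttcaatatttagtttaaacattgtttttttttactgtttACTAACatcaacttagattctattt

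The GTANG printed begins 29 bases before the last base of the snR90 row, and TGATGA begins 2, 5 and 58 bases after it, the first and second of these overlapping. CTGA begins 97 bases and ACTAAC 141 bases after it. Counted from that last base, another GTANG begins at -80 and another ACTAAC at -121, both before the printed stretch. RefSeq draws snR90 as 488 bases long and so includes this stretch, while the deposited row holds 225 bases and stops before it. Which transcript the counts of the remainder came from was not tested.

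On the other side, snoR56, a box C/D snoRNA whose namesake in budding yeast guides methylation of the small subunit rRNA, had 305 and 314 CPM in dbr1Δ, against 109 and 115 CPM in wild type. The groups were far apart, at 2.75-fold higher in dbr1Δ (log2 fold change 1.46 ± 0.07, SE; edgeR adjusted p = 7.4e-07). It is one of the 3 RNAs with both splice-like motifs in its flanks and moved in the other direction from snR40 and snr62.

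snoR69b had 3772 and 3556 CPM in dbr1Δ, against 1782 and 1783 CPM in wild type. Its wild-type libraries were equal to within 1 CPM, and it was 2.06-fold higher in dbr1Δ (log2 fold change 1.04 ± 0.08, SE; edgeR adjusted p = 9.8e-06). Its relative snoR69, at another place on the same chromosome, had 162 and 152 CPM in dbr1Δ, against 267 and 270 CPM in wild type. snoR69 was therefore lower, with a log2 fold change of -0.78 ± 0.07 (SE; edgeR adjusted p = 4.3e-05). The pair is shown because the RNAs share a stretch and moved in opposite directions. Both are from RefSeq on the plus strand, 5′ to 3′, at chrI:4154912-4155002 for snoR69b and chrI:5387559-5387641 for snoR69, with box C (TGATGA) and box D (CTGA) in capitals.
snoR69b: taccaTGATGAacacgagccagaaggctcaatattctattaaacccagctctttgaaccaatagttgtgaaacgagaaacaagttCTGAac
snoR69: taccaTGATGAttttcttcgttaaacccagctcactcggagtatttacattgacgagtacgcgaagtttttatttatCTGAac

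The longest run they share is ttaaacccagctc, 13 bases that begin at base 39 of snoR69b and base 21 of snoR69. The other shared runs of at least 7 bases are those with box C (11 bases) and box D (7 bases) at the ends. No run of 49 bases occurs in both, so no read of full length matches both exactly.

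**Figure D3:**
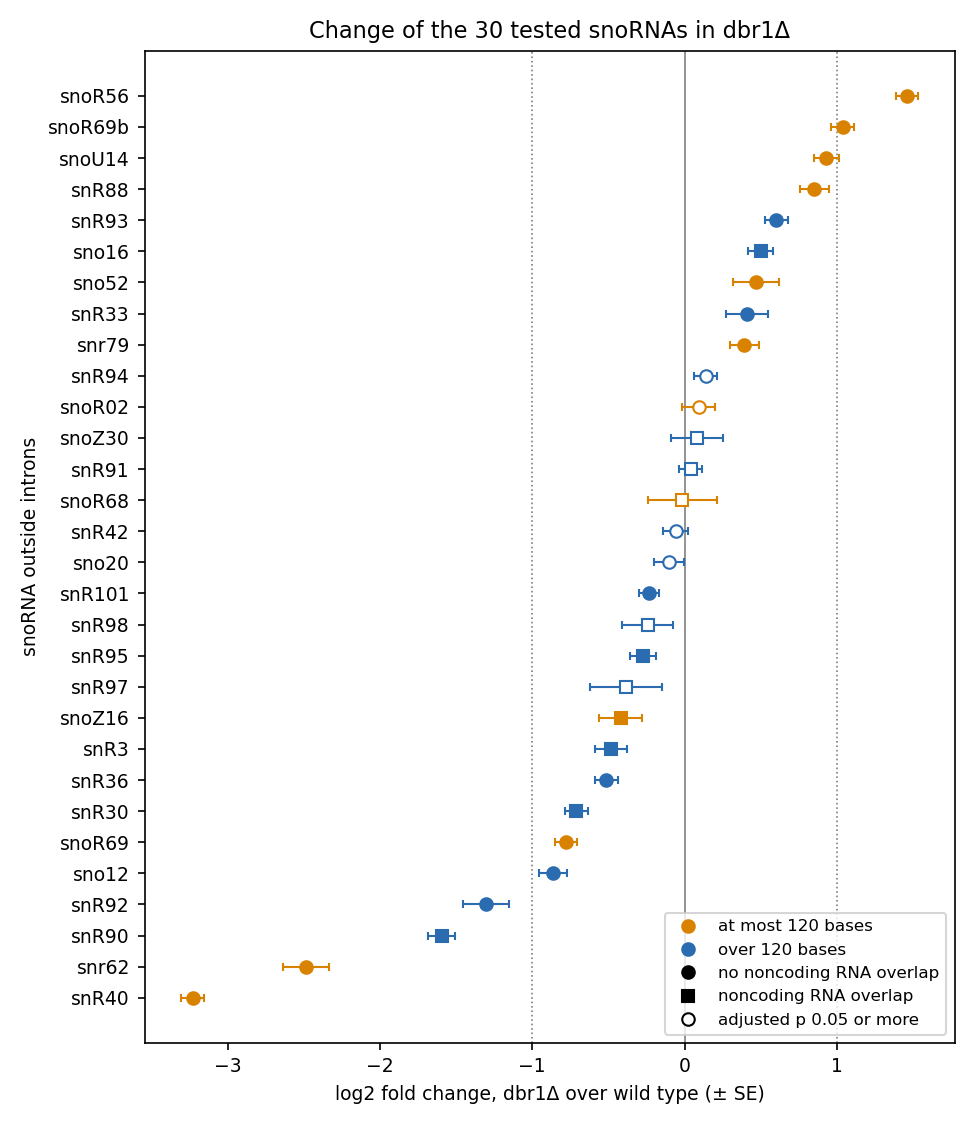
Log2 fold change of dbr1Δ over wild type (horizontal axis, ± SE) of the 30 tested snoRNAs, orange for at most 120 bases and blue for over 120 bases, squares for overlap with a noncoding RNA and open symbols for an adjusted p of 0.05 or more. Dotted lines mark a fold change of 2. snR40 stands at -3.23 and snoR56 at 1.46, both short RNAs.

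The short RNAs held both the largest rise and the largest fall. Of the 12 tested, 6 were higher and 4 lower in dbr1Δ, beside 17.8% higher and 42.6% lower among all transcripts. Their median log2 fold change was 0.24, or 0.42 with scaling from transcripts alone, 0.11 without dbr1Δ replicate 2 and 0.45 without dbr1Δ replicate 1. The higher ones besides snoR56 and snoR69b were snoU14, snR88, sno52 and snr79, and the lower ones were snR40, snr62, snoR69 and snoZ16.

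snoU14 (chrII:1308634-1308745) is the box C/D snoRNA that in budding yeast is needed for the cleavage of the 18S rRNA precursor as well as for methylation. It had 8176 and 9170 CPM in dbr1Δ, against 4567 and 4521 CPM in wild type. The groups did not overlap, and the log2 fold change was 0.93 ± 0.08 (SE; edgeR adjusted p = 3.7e-05). It was the most abundant of the 35 per length, at 77436 ± 6276 in dbr1Δ and 40570 ± 290 in wild type (CPM per kb, SD, n = 2 each). Without dbr1Δ replicate 1 it also passed the fold threshold. The sequence is given as the member with the highest level per length (RefSeq, plus strand, box C and box D in capitals).
snoU14: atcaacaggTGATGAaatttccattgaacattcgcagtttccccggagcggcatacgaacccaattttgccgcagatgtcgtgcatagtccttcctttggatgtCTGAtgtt

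snR88 had 479 and 552 CPM in dbr1Δ, against 269 and 302 CPM in wild type (log2 fold change 0.85 ± 0.10, SE; edgeR adjusted p = 1.4e-04). snr79 had 2026 and 2425 CPM in dbr1Δ, against 1720 and 1668 CPM in wild type (log2 fold change 0.39 ± 0.10, SE; edgeR adjusted p = 0.0085). sno52 had 247 and 345 CPM in dbr1Δ, against 195 and 231 CPM in wild type (log2 fold change 0.47 ± 0.15, SE; edgeR adjusted p = 0.027). In these 3 RNAs, of which snr79 and sno52 are named after methylation guides of budding yeast, both dbr1Δ libraries lay above both wild-type libraries. The spread was wide in sno52, whose call ended without dbr1Δ replicate 2 or wild-type replicate 1 (edgeR adjusted p = 0.091 and 0.18). The call of snr79 ended without either wild-type replicate (edgeR adjusted p = 0.056 and 0.070).

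snoZ16, one of the 5 highest per length in wild type, had 1169 and 1591 CPM in dbr1Δ, against 1967 and 1723 CPM in wild type. The replicates of each strain were spread and the strains stood close, and the log2 fold change was -0.42 ± 0.14 (SE; edgeR adjusted p = 0.032). Its call ended with scaling from transcripts alone, and when dbr1Δ replicate 1, wild-type replicate 1 or wild-type replicate 2 was left out (edgeR adjusted p = 0.18, 0.19 and 0.065). The other tested short RNAs, snoR02 (log2 fold change 0.09 ± 0.11, SE) and snoR68 (-0.01 ± 0.23, SE), did not pass the test, and their groups overlapped. snoR02 passed without dbr1Δ replicate 1 (0.28, edgeR adjusted p = 0.047).

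Among the 18 long RNAs tested, 3 were higher and 8 lower, shares close to the 17.8% and 42.6% of all transcripts and so not particular to the long RNAs. Their median log2 fold change was -0.24, or -0.07 with scaling from transcripts alone and -0.10 without wild-type replicate 2. The most abundant was snR30 (chrI:3394875-3395200), known as U17 in animals, a box H/ACA snoRNA that acts in the cleavage of the 18S rRNA precursor. It had 5957 and 6269 CPM in dbr1Δ, against 10204 and 9791 CPM in wild type. Both dbr1Δ libraries were clearly lower, at a log2 fold change of -0.71 ± 0.08 (SE; edgeR adjusted p = 1.0e-04). The cleavage snoRNAs snR30 and snoU14 thus went in opposite directions.

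sno12 had 896 and 1016 CPM in dbr1Δ, against 1650 and 1829 CPM in wild type (log2 fold change -0.86 ± 0.09, SE; edgeR adjusted p = 1.1e-04). snR93 had 998 and 957 CPM in dbr1Δ, against 669 and 618 CPM in wild type (log2 fold change 0.60 ± 0.08, SE; edgeR adjusted p = 2.9e-04). sno16 had 1081 and 1185 CPM in dbr1Δ, against 827 and 775 CPM in wild type (log2 fold change 0.50 ± 0.08, SE; edgeR adjusted p = 0.0010). The groups did not overlap in any of these 3 RNAs, so that long RNAs of similar abundance lay on both sides of no change.

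The pseudouridine guides named after budding yeast RNAs were mixed. snR36, whose namesake acts on the small subunit rRNA, had 333 and 363 CPM in dbr1Δ, against 500.0 and 494 CPM in wild type, and was lower (log2 fold change -0.51 ± 0.08, SE; edgeR adjusted p = 6.3e-04). snR3, a namesake of a large subunit guide, had 130 and 157 CPM in dbr1Δ, against 190.01 and 210 CPM in wild type (-0.48 ± 0.10, SE; edgeR adjusted p = 0.0040). Both were lower without overlap of the groups, but the call of snR3 ended with scaling from nuclear protein-coding transcripts (-0.25, edgeR adjusted p = 0.066). snR33 was higher (0.41 ± 0.14, SE; edgeR adjusted p = 0.033) at only 11.98 and 13.8 CPM in dbr1Δ, against 10.3 and 9.1 CPM in wild type. The call of snR33 ended in the fit with a replicate block, in DESeq2, and without dbr1Δ replicate 2, wild-type replicate 1 or wild-type replicate 2 (edgeR adjusted p = 0.11, 0.059 and 0.18 for the left-out libraries). snR42 (-0.06 ± 0.08, SE) and sno20, also named snR35 (-0.10 ± 0.10, SE), did not pass the test.

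The other calls among the long RNAs were small. snR95 had 419 and 457 CPM in dbr1Δ, against 499.6 and 556 CPM in wild type (log2 fold change -0.27 ± 0.09, SE; edgeR adjusted p = 0.025). snR101 had 50.5 and 51.1 CPM in dbr1Δ, against 59.96 and 59.5 CPM in wild type (-0.23 ± 0.07, SE; edgeR adjusted p = 0.016). The groups did not overlap in either RNA. Both calls ended with scaling from transcripts alone, that of snR95 also without dbr1Δ replicate 1 or wild-type replicate 2 (edgeR adjusted p = 0.17 and 0.21), and that of snR101 whichever library was left out (edgeR adjusted p = 0.057 to 0.097). snR91, snR94, snR97, snR98 and snoZ30 did not pass the test, at log2 fold changes between -0.38 (snR97) and 0.14 (snR94). Of these, snR94 and snR91 passed with scaling from transcripts alone, at log2 fold changes of 0.31 and 0.22 (edgeR adjusted p = 0.0075 and 0.040), and snR98 passed without wild-type replicate 1 (-0.50, edgeR adjusted p = 0.013).

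Summed over its members, each size class moved one way, while the total of the 35 RNAs hardly differed. The 35 RNAs took 3.02% and 3.14% of all counts in dbr1Δ, against 3.08% and 3.03% in wild type. The short RNAs summed to 16490 and 18289 CPM in dbr1Δ, against 11382 and 11102 CPM in wild type, a ratio of 1.55 between the means. The long RNAs summed to 12571 and 13223 CPM in dbr1Δ, against 19896 and 19781 CPM in wild type, a ratio of 0.650. The short RNAs thus gave the larger part of these counts in dbr1Δ and the smaller part in wild type. Short over long came to 1.31 and 1.38 in dbr1Δ, against 0.572 and 0.561 in wild type, a ratio within each library that no scaling between libraries changes. It can still depend on how well each library recovered short RNAs. The paper describes a bias against short lariats from the size selection of the libraries. Whether such recovery differed between these libraries was not tested.

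A few abundant RNAs carry these sums. snoU14 gave 28.1% and 29.1% of the counts of the 35 RNAs in dbr1Δ, against 14.6% and 14.6% in wild type, and without it the ratio of the short RNAs was 1.30. Without snoU14 and snoR69b the other 11 short RNAs summed to 4542 and 5563 CPM in dbr1Δ, against 5033 and 4799 CPM in wild type, a ratio of 1.03, so nearly all of the rise of the short class came from that pair. snR30 gave 20.5% and 19.9% in dbr1Δ, against 32.6% and 31.7% in wild type. snR90 gave 4.54% and 3.69% in dbr1Δ, against 11.95% and 12.2% in wild type. Without snR30 and snR90 the ratio of the other 20 long RNAs was 0.910, so most of the fall of the long class came from this pair. With a pair of libraries per strain, sums were not tested.

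**Figure D4:**
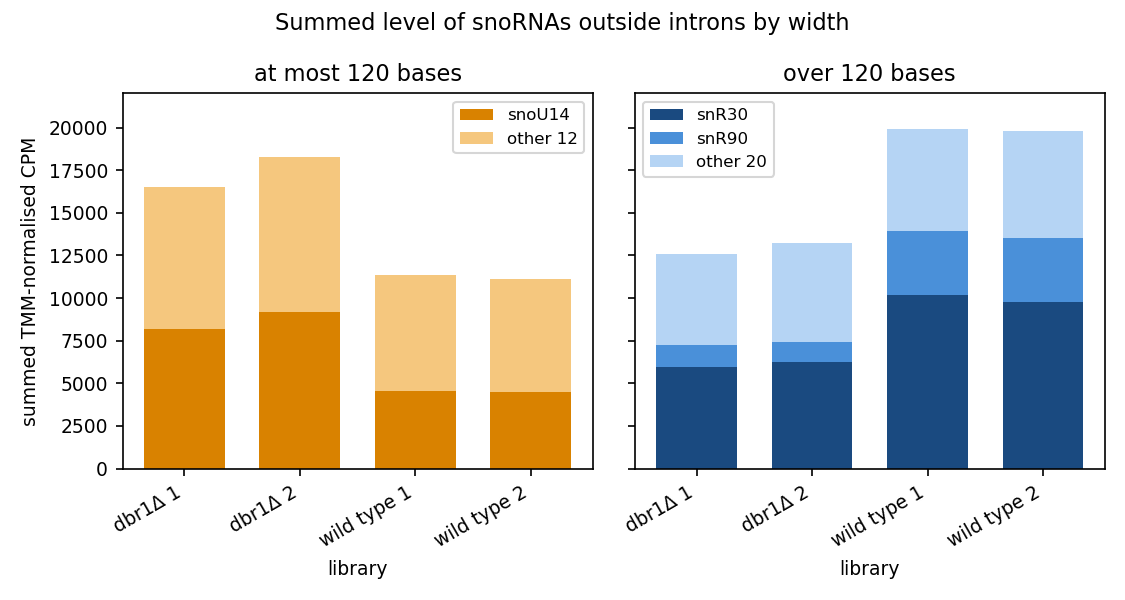
Summed TMM-normalised CPM (vertical axis) of the 13 snoRNAs of at most 120 bases (left panel, snoU14 apart) and the 22 of over 120 bases (right panel, snR30 and snR90 apart) in each library. The short RNAs stand at 16490 and 18289 CPM in dbr1Δ, against 11382 and 11102 CPM in wild type, and the long ones at 12571 and 13223 CPM, against 19896 and 19781 CPM.

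Per length, the order of the members also differed between the strains. In wild type the order of the 5 highest was snoU14 (40570 ± 290), snR30 (30667 ± 896), snoZ16 (22226 ± 2077), snoR69b (19587 ± 2.6) and snr79 (19250 ± 418), in CPM per kb (SD, n = 2). The last 2 of these do not differ beyond the spread of snr79, and snoZ16 lay above them by little more than its own spread. The same RNAs had 77436 ± 6276, 18750 ± 677, 16628 ± 3593, 40265 ± 1680 and 25291 ± 3207 in dbr1Δ (SD, n = 2). There snoR69b and snr79 stood above snR30, and snR30 and snoZ16 did not differ beyond their spread. At the low end of the tested members, snR97 had 9.20 ± 0.07 CPM per kb in dbr1Δ and 12.01 ± 0.01 in wild type.

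Of the 35 RNAs, 11 overlap a noncoding RNA of the deposited table on the same strand, 8 of them wholly inside it, and the other 24 do not. Of the 11, all tested, 1 was higher (sno16) and 5 lower (snR90, snR30, snR3, snoZ16 and snR95), where 17.8% of all transcripts were higher and 42.6% lower, so that the share of lower RNAs is close to the background. Their median log2 fold change was -0.27. Of the 19 tested without such an overlap, 8 were higher and 7 lower, with a median of 0.09, which ran from -0.02 without dbr1Δ replicate 2 to 0.26 without dbr1Δ replicate 1. Without dbr1Δ replicate 1 or wild-type replicate 2 only 3 of the 11 were lower, and without wild-type replicate 1 only 5 of the 19 were higher. The overlap goes with size, since 9 of the 11 are long RNAs and 11 of the 24 are short ones. Among the long RNAs alone the medians were -0.27 with the overlap (1 higher and 4 lower of 9) and -0.10 without it (2 higher and 4 lower of 9), so the difference within this size class was small. All medians in this comparison are 0.17 higher with scaling from transcripts alone.

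The members with an overlap that did not pass the test were of low to middle level. snR91 had 186 and 201 CPM in dbr1Δ, against 182 and 193 CPM in wild type. snR98 had 73.9 and 85.8 CPM in dbr1Δ, against 75.5 and 113 CPM in wild type. In both the groups overlapped. snoZ30 had 11.5 and 16.4 CPM in dbr1Δ, against 12.6 and 13.7 CPM in wild type. snoR68 had 5.73 and 9.07 CPM in dbr1Δ, against 8.20 and 6.69 CPM in wild type. These groups overlapped too, and only in snR97, with 1.35 and 1.37 CPM in dbr1Δ against 1.78 and 1.78 CPM in wild type, did both dbr1Δ libraries lie below.

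The noncoding RNAs and the snoRNAs inside them share counts, so each was set beside the same row with the snoRNA's counts taken off. For snR30, snR91 and snR95 the snoRNA had more counts than the noncoding RNA that overlaps it in part, and no remainder could be given. These rows, SPNCRNA.906 (5389 and 5776 CPM in dbr1Δ, against 9507 and 9148 CPM in wild type), SPNCRNA.901 (177 and 192 CPM, against 176 and 186 CPM) and SPNCRNA.1436 (413 and 448 CPM, against 493 and 551 CPM), are given as counted. The noncoding RNA SPNCRNA.1597 around sno16 rose with it (log2 fold change 0.47), but its remainder, 688 and 521 counts in dbr1Δ against 977 and 1278 in wild type, was lower (-0.49 ± 0.09, SE; edgeR adjusted p = 0.0017). sno16 and snR90 are thus the members whose remainder moved against the counted snoRNA row with a call on both sides. For snR90, part of that remainder lies inside the longer RefSeq entry of snR90 itself. For snoZ16, SPNCRNA.727 was lower (-0.47) and so was its remainder (-0.57 ± 0.10, SE; edgeR adjusted p = 0.0017).

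The other remainders were small or did not pass the test. That of SPNCRNA.814 around snR98 had 6 and 11 counts in dbr1Δ, against 32 and 44 in wild type (log2 fold change -1.72 ± 0.41, SE; edgeR adjusted p = 0.0070). That of SPNCRNA.1650 around snoR68 had 34 and 44 counts in dbr1Δ, against 16 and 27 in wild type (1.30 ± 0.34, SE; edgeR adjusted p = 0.011). Both snoRNAs themselves did not pass the test. The remainders around snR3 (-0.09 ± 0.19, SE), snoZ30 (0.02 ± 0.09, SE) and snR97 (0.24 ± 0.12, SE) did not pass it either.

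**Figure D5:**
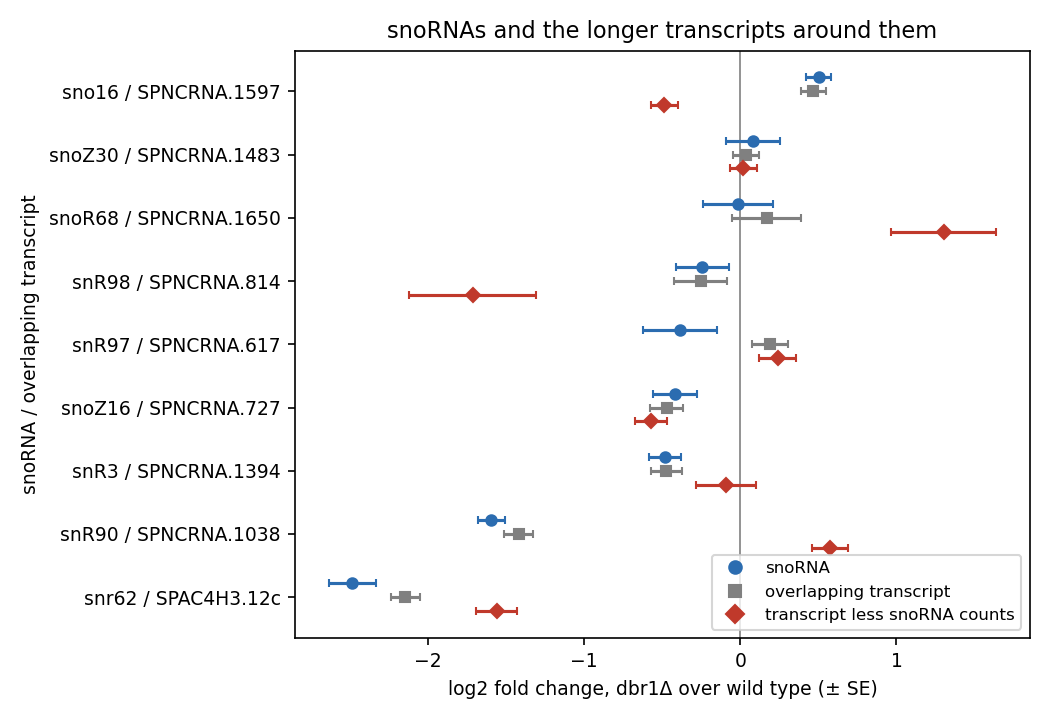
Log2 fold change of dbr1Δ over wild type (horizontal axis, ± SE) for 9 snoRNAs (circles), the longer transcripts that overlap them on the same strand (squares) and those transcripts less the counts of the snoRNA (diamonds). For snR90 the snoRNA is at -1.60 and the remainder at 0.57, and for sno16 the snoRNA is at 0.50 and the remainder at -0.49.

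The 5 RNAs under the count minimum had almost no counts. snR10 had 0 counts in all 4 libraries, which allows up to 0.0682 CPM in dbr1Δ and 0.0490 CPM in wild type (3 counts over the libraries of a strain, counting error only). snR96 had 3 and 1 counts in dbr1Δ, against 1 and 1 in wild type. snR5 had 3 and 1 counts in dbr1Δ, against 0 and 1 in wild type. snR46 had 1 and 1 counts in dbr1Δ, against 0 and 0 in wild type, and snoR54b had 2 and 0, against 0 and 0. No difference was detectable at this depth in any of the 5.

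Of these 5, the 4 long ones (snR5, snR10, snR46 and snR96) carry an ACA within the last 8 bases on the strand opposite to the one in the deposited table, and 0 of 4 carry it on the table's strand. Of the 16 tested long RNAs with the same width in RefSeq, 13 carry it on the table's strand and 1 on the other. In RefSeq snR46 is on the minus strand, while the deposited table has it on the plus strand. The last 30 bases of each strand of the row are printed 5′ to 3′ from RefSeq, with the ACA in capitals, to show the difference.
snR46 on the table's strand: gcagctagataagcttcgataaggccaagg
snR46 on the other strand: tataatacatttttagaaagttgcACAttt
snR10 on the table's strand: ttattttgactgttataataagcgttgttc
snR10 on the other strand: ataatcatctcaataattgtcactACAtga
snR5 on the table's strand: agactgcaattggtaaaagagaccattggc
snR5 on the other strand: agtaaattcggttcgcttgtggtgtACAtt
snR96 on the table's strand: tccctgtttaacgagtgctgacgattccgc
snR96 on the other strand: gtttggataacacaagggatcgaaACAttt

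The RNA of the other strand at these 4 places was not analysed here, and its part in the low counts was not tested. The budding yeast namesake of snR10 acts in rRNA processing as well as in pseudouridylation, and those of snR5 and snR46 guide pseudouridines in the large subunit rRNA.

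The snoRNAs in other places of the genome are given beside these for comparison, by counts from the same fit. Of the 10 snoRNAs inside annotated introns 0 were higher and 8 lower (6 decreased), at a median log2 fold change of -1.36, and of the 8 in the clusters 1 was higher and 5 lower (4 decreased), with a median of -1.03. Of 7 small nuclear RNAs 1 was higher and 4 lower, with a median of -0.46. The 30 tested RNAs outside introns and clusters had 9 higher, 12 lower and a median of -0.08, and the smallest share of decreased RNAs among these snoRNA groups. The largest rise among the snoRNAs was in a cluster, that of snoZ5 (log2 fold change 2.24 ± 0.08, SE; edgeR adjusted p = 1.1e-07). Of all tested transcripts 17.8% were higher and 42.6% lower. The difference between the groups was not tested. Among the 1250 tested noncoding RNAs as a whole 430 were higher and 177 lower, with a median of 0.30.

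The protein genes that assemble and trim snoRNAs were read from the same fit. Of the box C/D core proteins (fib1, nop56, nop58 and snu13) 3 of 4 were lower, and fib1, the methyltransferase, did not pass the test (143 and 79.1 CPM in dbr1Δ, against 124 and 153 CPM in wild type). Of the box H/ACA core proteins (cbf5, gar1, nhp2 and nop10) 4 of 4 were lower. gar1 differed most of these, with 77.8 and 86.4 CPM in dbr1Δ, against 138 and 152 CPM in wild type (log2 fold change -0.82 ± 0.08, SE; edgeR adjusted p = 7.5e-05). The 7 core protein genes that were lower differed by less than a fold of 2, among transcripts of which 42.6% were lower.

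Of 6 snoRNP assembly factors matched 2 were lower and 0 higher, with rvb2 at a log2 fold change of -0.31 ± 0.08 (SE) and rvb1 at -0.25 ± 0.09 (SE). Of 6 genes for cleavage and 5′ ends 5 were lower, dbr1 among them, and tgs1, the cap hypermethylase, was higher (0.25 ± 0.09, SE; edgeR adjusted p = 0.039). The exonucleases exo2 (-0.78 ± 0.07, SE) and din1, a partner of the nuclear exonuclease Dhp1 (-0.76 ± 0.07, SE), were lower. Of 20 genes for 3′ ends and the exosome 17 were lower and 0 higher. The exosome subunit rrp41 was the one decreased gene there, with 27.9 and 31.7 CPM in dbr1Δ, against 71.9 and 68.7 CPM in wild type (-1.24 ± 0.08, SE; edgeR adjusted p = 6.6e-06). The nuclear exosome nuclease rrp6 was at -0.80 ± 0.07 (SE) and the subunit rrp42 at -0.76 ± 0.13 (SE). Of 8 La and Lsm genes 5 were lower and lsm4 was higher, with the La protein gene sla1, whose product binds new RNA 3′ ends, at -0.75 ± 0.07 (SE). As background, 42.6% of the 6401 transcripts passed the test as lower and 17.8% as higher. Scaling from transcripts alone raises every log2 fold change by 0.17. It leaves 1760 of these transcripts lower, against 2726 in the fit used here. How many genes of the lists stay lower under that scaling was not tested. The part of the listed genes in the levels of the snoRNAs was not tested either.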

How the data were processed

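Strand-specific RNA-seq of 2 dbr1Δ and 2 wild-type cultures was used. Per the labels, rRNA was removed from 4 µg of total RNA, which was broken to an average of 200 nt and amplified for 15 cycles. The authors mapped the reads with Bowtie, dropped reads with several matches and deposited raw counts per transcript and intron (genome build EF1). The submitters' notes write the Bowtie version as 0.12.725, which differs from the version in the paper. The deposited log2 expression and splicing values, fold changes and p-values of the authors were not used. Counts were fitted for all loci together in edgeR 4.0.16 under R 4.3.3 (quasi-likelihood F test, TMM factors, 10 counts or more in 2 or more libraries, Benjamini-Hochberg over 9518 loci), with exon-intron reads added to the reads of an intron. DESeq2 1.42.0 was an alternative. The fit was also run on simulated data, with changes larger than most of those called here, so that run does not cover the smaller calls. P-values rest on a spread pooled over loci, with 2 replicates per strain. Each SE of a log2 fold change was worked back from the edgeR test, as the absolute change over the square root of the F statistic. It is not a direct estimate and can be too narrow, as for snR40, where DESeq2 gave 0.10 against 0.07 here. Names and sequences came from RefSeq ASM294v3. The members, gene lists and alternatives were chosen with earlier results of these data known. Values in every library are given for members past the fold threshold, the 5 largest changes each way, the 5 highest levels per length, members with overlap, and members under the minimum, and from each gene list for up to 3 genes and dbr1.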

Additional observations from a re-analysis of the deposited data

How the results depend on the processing

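The 4 decreased RNAs (snR40, snr62, snR90 and snR92) and the increased snoR56 and snoR69b kept their calls in every alternative fit, the leave-one-out fits included. The count of increased RNAs was 4 with factors from transcripts, with factors from nuclear protein-coding transcripts and with transcripts fitted without introns, and with no fold change cutoff the counts were 9 increased and 12 decreased. With factors from nuclear protein-coding transcripts the median log2 fold change was 0.15 for all members, 0.48 for the short, -0.01 (-0.0072) for the long, -0.04 (-0.039) for the overlapping and 0.32 for the other RNAs. With factors from transcripts, or transcripts without introns, it was -0.07 (-0.066) for the long and -0.10 (-0.097) for the overlapping RNAs. With no filter it was -0.13 for the long and 0.36 for the RNAs without overlap, and with a mean of at least 50 counts -0.12 for the long and -0.14 for the overlapping RNAs. Under the 3 transcript scalings 5 long and 2 overlapping RNAs were higher, and 3, 2 and 3 overlapping RNAs lower, with 5 long RNAs lower under the protein-coding factors. 3 overlapping RNAs were lower with a mean of at least 50 counts. With a width limit of 150 bases 1 long RNA was higher. Leaving out each library in turn, the median ran from -0.20 to 0.07 (0.067) for all members, 0.11 to 0.45 for the short, -0.29 to -0.10 (-0.098) for the long and -0.35 to -0.16 for the overlapping RNAs and -0.02 (-0.021) to 0.26 for the others, with 3 to 5 overlapping RNAs lower and 5 to 10 RNAs without overlap higher. The signs of small changes that did not pass the test depended on the scaling. The log2 fold change of snR42 was 0.11 (0.115), 0.17 and 0.11 (0.115) under the 3 transcript scalings and 0.05 (0.0537) with a mean of at least 50 counts, that of sno20 was 0.07 (0.0708), 0.13 and 0.07 (0.0708) and 0.01 (0.0101), and that of snoR68 was 0.16, 0.22, 0.16 and 0.10 (0.0981), and 0.03 (0.0321) with library totals alone. That of SPNCRNA.901 around snR91 was -0.0030 with no filter. With the snoRNA's counts taken off, SPNCRNA.1038 was at 0.57 and SPNCRNA.1597 at -0.49, since the snoRNA gave most of their counts. Leaving out single libraries gave -0.50 to 0.09 (0.088) for snR98, -0.02 (-0.0207) to 0.28 for snoR02, -0.0034 to 0.15 for snR91, -0.11 to 0.07 (0.0728) for snR42, -0.15 to 0.36 for snoZ30, -0.19 to 0.06 (0.0603) for sno20 and -0.34 to 0.34 for snoR68. It gave -0.01 (-0.012) to 0.17 for SPNCRNA.1483, -0.16 to 0.53 for SPNCRNA.1650, -0.51 to 0.07 (0.0707) for SPNCRNA.814 and -0.01 (-0.0149) to 0.13 for SPNCRNA.901. For these values outside the calls the cause was not tested. The replicate numbers did not pair the cultures (correlation of deviations -0.038), and the fit with a replicate block on them gave 2 increased and 4 decreased RNAs and ended 1 call, that of snR33. Of the 30 tested RNAs 29 kept their side of the threshold in DESeq2 and in the block fit, and 30 with RLE factors.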
